A study of Sus scrofa with 22 samples.

Results

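TNF, IL10, IL15, TNFRSF1B and NFKBIA are 5 genes of inflammatory signalling, measured here in mini pigs, in mononuclear cells of peripheral blood, on a control diet, a high-fat diet or a high-fat diet with resveratrol. They were taken by symbol, as every probe set of the array annotated to exactly 1 of the 5 names. This gave 5 probe sets, 1 for each gene, of 23999 probe sets in all, of which those with 1 symbol stood for 6765 genes. The probe sets were Ssc_100_1_S1_at for TNF, Ssc_148_1_S1_at for IL10, Ssc_8833_1_S1_at for IL15, Ssc_15242_1_S1_at for TNFRSF1B and Ssc_4759_1_S1_at for NFKBIA, with each point of an ID written as _. All 5 passed the filter on dim probe sets, a log2 value above 5 in at least 2 arrays, and so were among the 17240 probe sets tested.

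TNF encodes tumour necrosis factor, a cytokine made by activated monocytes, macrophages and lymphocytes. Its receptor TNFR2, encoded by TNFRSF1B, is carried mainly by white blood cells and acts through TRAF adaptor proteins on NF-kB, the transcription factor of inflammatory genes. NFKBIA encodes IkB-alpha, which holds NF-kB in the cytoplasm and is itself an NF-kB target, so that it forms a negative feedback loop. IL10 encodes the anti-inflammatory cytokine interleukin-10, and IL15 encodes interleukin-15, which sustains NK cells and memory CD8 T cells.

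The series asked how a high-fat diet, and resveratrol taken with it, acts on gene expression in these cells, and whether females and males differ. Blood cells were separated on a Histopaque gradient and their RNA was put on Affymetrix porcine arrays, 1 array per blood sample. The high-fat diet with resveratrol held 20% beef tallow and gave resveratrol at 8 mg per kg of body weight per day for 9 months, in 2 females (pigs 21 and 22) and 2 males (pigs 4 and 5). The high-fat diet held 20% beef tallow for 9 months, in 2 females (pigs 27 and 30) and 2 males (pigs 23 and 26). The control diet was normal chow with 5% beef tallow, measured at 9 months in 2 females (pigs 18 and 8) and 2 males (pigs 16 and 25). At time 0, before the 9 months, control animals on normal chow were measured, 5 females (pigs 6, 8, 10, 17 and 20) and 5 males (pigs 11, 12, 15, 24 and 25). All were mini pigs, and the labels used here give no ages. Pigs 8 and 25 gave an array at each time, so that 20 pigs gave 22 arrays. Each diet and sex thus rests on 2 animals.

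Values are log2 RMA intensities, on which a difference of 1 is a 2-fold change in signal. Pairs of arrays of the same condition and sex correlated over probe sets at a median r of 0.986, and pairs from different groups at 0.969. Markers of mononuclear cells were present in every array. The T cell list mean was 9.94 to 10.8 (11 genes) and the monocyte list mean was 9.36 to 10.1 (14 genes). Over the probe sets tested, the array medians lay at 7.22 to 7.34. The granulocyte list mean was 5.11 to 6.68 (6 genes on the array, 5 of them tested), and the erythroid list mean reached 10.2. CD79B, the B cell gene of the lists that was tested, ran from 8.82 to 10.6. No deposited value was 0 or lower. By the signal of the poly-A RNAs spiked into each sample, the arrays fell into a higher and a lower set at each time, which the labels do not name. At 9 months the 5 arrays of the higher set and the 7 of the lower held all 3 diets, while at time 0 the higher set was females 6 and 10 alone, so the 9-month and time 0 sets cannot be told apart from time itself.

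Between time 0 and 9 months on the control diet, the receptor gene TNFRSF1B and the inhibitor gene NFKBIA rose, and the cytokine genes TNF, IL10 and IL15 did not pass the test. TNFRSF1B was 1.99-fold higher at 9 months (95% interval 1.70 to 2.34) and NFKBIA was 1.41-fold higher (1.21 to 1.64), with 4 arrays at 9 months and 10 at time 0. The 2 of 5 genes called, both of them higher, stand against 35.0% of the 17240 probe sets called for time, 15.8% called higher and 19.1% called lower, by limma with Benjamini-Hochberg adjustment at 0.05. The share of the 5 genes called for time was thus close to that of all probe sets.

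TNF, the ligand of the TNF receptors, read 8.04 and 9.03 in the 9-month control females 18 and 8, and 8.00 and 7.83 in the males 16 and 25. At time 0 the lowest TNF value was 7.70, the median 7.99 and the highest 9.03. The ranges overlapped over nearly their whole length, and at each time 1 female stood at the top. TNF averaged 8.22 ± 0.54 at 9 months and 8.17 ± 0.41 at time 0 (SD, n = 4 and 10), a log2 difference of 0.06 (SE 0.24, 95% interval -0.44 to 0.55, limma adjusted p = 0.876).

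IL10 read 9.46 and 9.24 in the 9-month control females 18 and 8, and 8.54 and 9.46 in the males 16 and 25. The time 0 values ran from 8.46 through a median of 9.06 to 9.35. Male 16 lay near the bottom of the time 0 range, and 2 of the other 3 arrays lay above all of it. The log2 difference of IL10 was 0.18 (SE 0.17, 95% interval -0.18 to 0.53, limma adjusted p = 0.439), and with limma's array weights, which count discordant arrays for less, it was 0.38 with adjusted p = 0.0488.

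IL15 read 7.60 and 7.34 in the 9-month control females 18 and 8, and 7.08 and 7.99 in the males 16 and 25. At time 0 it ran from 6.99 through 7.39 to 8.27. The 9-month values all fell inside the time 0 range, and the log2 difference was 0.02 (SE 0.18, 95% interval -0.37 to 0.40, limma adjusted p = 0.956).

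TNFRSF1B, which encodes TNFR2, read 12.25 and 12.13 in the 9-month control females 18 and 8, and 12.25 and 11.97 in the males 16 and 25. Its time 0 values ran from 10.81 through 11.21 to 11.47. Every 9-month array stood above every time 0 array, with a gap between the groups wider than the SD of either. The mean was 12.15 ± 0.13 at 9 months and 11.15 ± 0.24 at time 0, a log2 difference of 1.00 (SE 0.11, limma adjusted p = 1.96e-06). By p-value it was number 122 of the 17240 probe sets.

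NFKBIA, the feedback inhibitor, read 12.42 and 12.55 in the 9-month control females 18 and 8, and 12.35 and 12.46 in the males 16 and 25. At time 0 it ran from 11.60 through 11.95 to 12.31. Here too the groups did not overlap, but only a narrow step parted male 16 at 9 months from female 6 at time 0. The log2 difference of NFKBIA was 0.50 (SE 0.10, limma adjusted p = 0.00105). TNFRSF1B and NFKBIA were therefore 2 of 5 genes whose 9-month control arrays all lay above all time 0 arrays, where 6.54% of all probe sets tested did so.

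**Figure D1:**
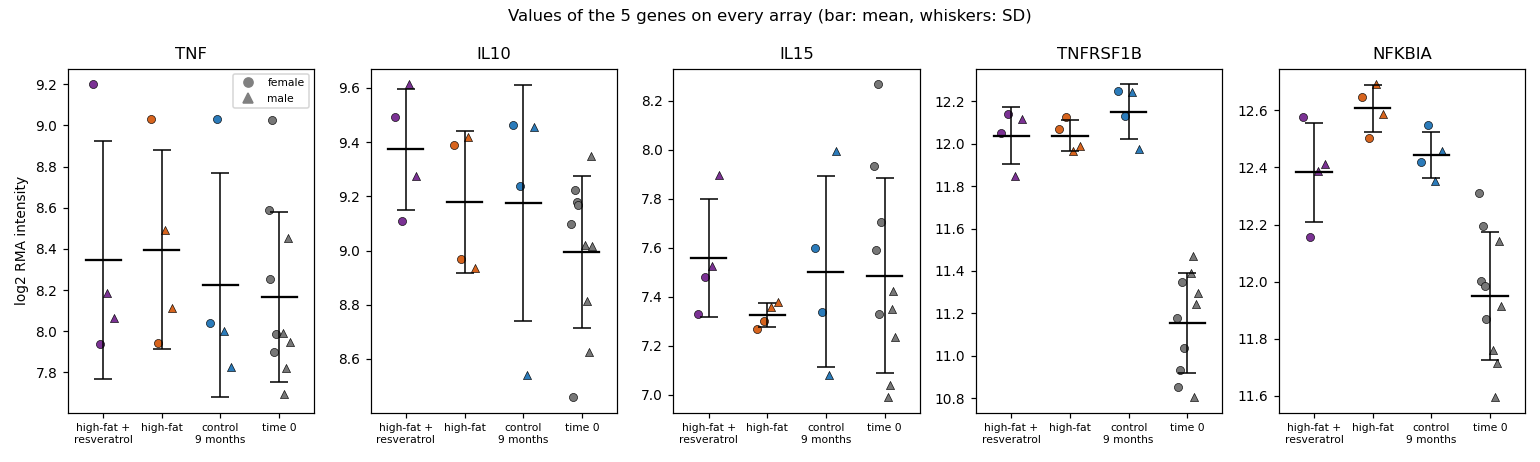
Log2 RMA intensity (vertical axis, a separate scale per gene) of TNF, IL10, IL15, TNFRSF1B and NFKBIA on each of the 22 arrays by condition, with circles for females, triangles for males, a bar for the mean and whiskers for the SD. TNFRSF1B stands near 12 in all 3 diets at 9 months and between 10.81 and 11.47 at time 0, NFKBIA steps in the same direction with 1 array of the high-fat diet with resveratrol among the time 0 values, and the cytokine genes overlap throughout.

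The rise of TNFRSF1B and NFKBIA was seen in each sex and in both pigs with an array at each time. Within females TNFRSF1B was 1.12 higher on the log2 scale at 9 months (limma adjusted p = 8.80e-05), and within males 0.87 higher (adjusted p = 0.00110). NFKBIA was 0.41 higher within females (limma adjusted p = 0.0440) and 0.58 higher within males (adjusted p = 0.00905), where 24.7% of all probe sets were called in females and 20.8% in males. Pig 8 had TNFRSF1B at 12.13 at 9 months and 10.85 at time 0, and pig 25 had it at 11.97 at 9 months and 11.29 at time 0. NFKBIA read 12.55 at 9 months and 12.00 at time 0 in pig 8, and 12.46 at 9 months and 11.91 at time 0 in pig 25. The cytokine genes went separate ways in the same pigs: pig 8 gained 0.77 in TNF and lost 0.25 in IL15, while pig 25 lost 0.12 in TNF and gained 0.76 in IL15. IL10 was higher at 9 months in both, by 0.78 in pig 8 and 0.44 in pig 25.

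Cell markers moved over the same 9 months. The T cell list mean was 10.17 ± 0.07 in the 9-month control arrays and 10.70 ± 0.13 at time 0, without overlap, and 7 of its 11 genes fell while none rose, where 19.1% of all probe sets fell. The NK list had 2 of 4 genes lower (GNLY and GZMH), with a median difference of -0.53, and CD79B fell by 0.70. The monocyte list mean was 9.92 ± 0.16 at 9 months and 9.65 ± 0.19 at time 0. Of its genes 3 of 14 were higher (CD163, CEBPA and FCER1G), where 15.8% of all probe sets rose. All 5 erythroid genes fell. The 2 lists' difference, monocyte minus T cell, ran from -0.39 to -0.02 in the 9-month control arrays and from -1.42 to -0.46 at time 0. In bulk RNA, fewer cells of a type and less RNA per cell cannot be told apart. With the monocyte minus T cell difference as a term in the fit, TNFRSF1B was 1.03 higher (limma adjusted p = 0.000120). NFKBIA was 0.33 higher in that fit and no longer passed (limma adjusted p = 0.0788). Since the ranges of the monocyte minus T cell difference did not overlap between these groups, the fit cannot fully separate it from time. The 3′ minus 5′ signal of beta-actin, a measure of RNA integrity, was 1.95 ± 0.65 in the 9-month control arrays and 1.42 ± 0.50 at time 0, with overlap. The same measure for GAPDH ran from 0.23 to 0.57 in the 9-month control arrays and from 0.28 to 0.93 at time 0. The part of RNA integrity in these differences was not tested.

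**Figure D2:**
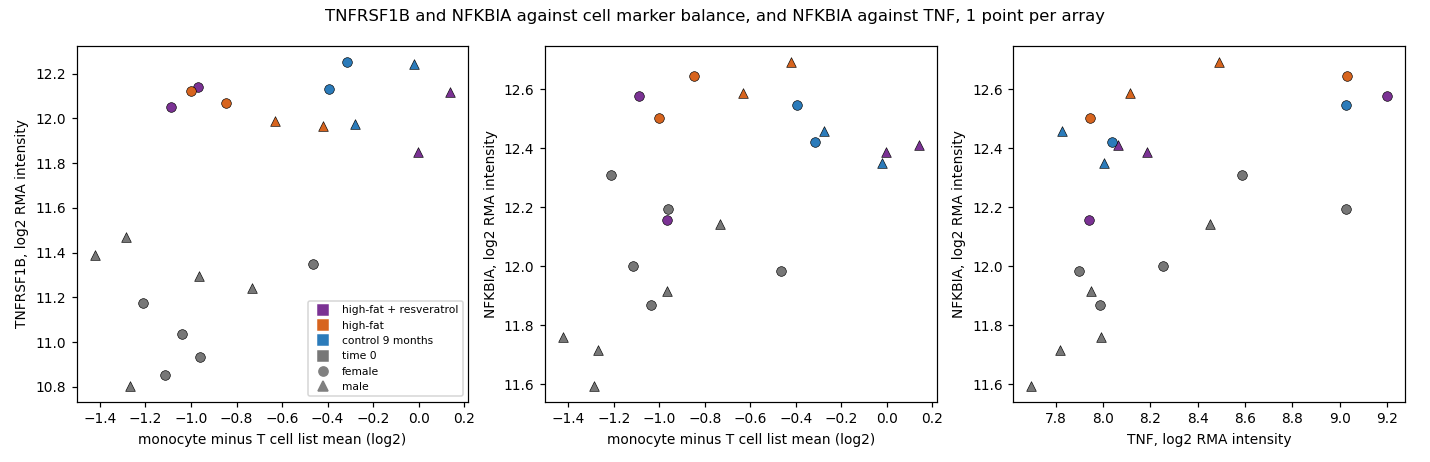
The left and middle panels set TNFRSF1B and NFKBIA (log2 RMA intensity, vertical axes) against the monocyte list mean minus the T cell list mean (log2, horizontal axis), and the right panel sets NFKBIA against TNF, with 1 point per array coloured by condition and shaped by sex. TNFRSF1B lies between 11.85 and 12.25 at 9 months and between 10.81 and 11.47 at time 0, and NFKBIA is higher where TNF is higher at time 0 (r = 0.857).

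At 9 months, none of the 5 genes passed the test between diets. In the order of condition means, TNF stood highest on the high-fat diet (8.40 ± 0.48), then on the high-fat diet with resveratrol (8.35 ± 0.58), on the control diet (8.22 ± 0.54) and at time 0 (8.17 ± 0.41). IL10 stood highest on the high-fat diet with resveratrol (9.37 ± 0.22), with the high-fat diet at 9.18 ± 0.26, the control diet at 9.17 ± 0.44 and time 0 at 9.00 ± 0.28. IL15 ran in the order high-fat with resveratrol (7.56 ± 0.24), control diet (7.50 ± 0.39), time 0 (7.49 ± 0.40) and high-fat diet (7.33 ± 0.05). In each of these 3 orders, neighbouring conditions overlapped and their means lay closer together than the larger of their SDs. TNFRSF1B had its control-diet mean first (12.15 ± 0.13), then high-fat with resveratrol (12.04 ± 0.13) and high-fat (12.04 ± 0.07), which overlapped, and time 0 last (11.15 ± 0.24), set apart from the high-fat diet by 0.88. NFKBIA stood highest on the high-fat diet (12.61 ± 0.08), with the control diet (12.44 ± 0.08) and high-fat with resveratrol (12.38 ± 0.17) next and time 0 last (11.95 ± 0.22). Its step between the high-fat and the control diet, 0.16, was larger than either SD, although the arrays overlapped, and so did 1 array across its step of 0.43 down to time 0.

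The high-fat diet was set against the control diet first. 0 of the 5 genes were called, as were 0% of the 17240 probe sets, by limma with adjusted p under 0.05, while 1562 probe sets had an unadjusted p under 0.05. None of the 5 genes was among those 1562. With array weights 68 probe sets were called, and with 8 group means in place of an additive sex term 18, again with none of the 5 genes among them.

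NFKBIA came closest to a diet difference. On the high-fat diet it read 12.65 and 12.50 in females 27 and 30 and 12.69 and 12.59 in males 23 and 26, against control-diet values of 12.35 to 12.55. High-fat female 30 alone lay below a control array, female 8. The log2 difference was 0.16 (SE 0.12, 95% interval -0.10 to 0.42, limma adjusted p = 0.767). It was 0.21 within the lower spike-in set, which holds 1 high-fat array (male 23), and 0.13 within the higher, which holds 1 control array (male 25), with limma adjusted p = 0.846 and 0.980. TNF read 9.03 and 7.94 in high-fat females 27 and 30 and 8.49 and 8.11 in males 23 and 26, which gave a difference of 0.17 from the control diet (SE 0.28, 95% interval -0.42 to 0.76). The 2 high-fat females thus spanned more than the whole distance between any 2 conditions' means.

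IL10 on the high-fat diet read 9.39 and 8.97 in females 27 and 30 and 9.42 and 8.94 in males 23 and 26, and its mean differed from that of the control diet by 0.0035 (SE 0.20, 95% interval -0.42 to 0.43). IL15 read 7.27 and 7.30 in females 27 and 30 and 7.36 and 7.38 in males 23 and 26. These 4 IL15 values lay close together, with an SD of 0.05 where the control diet had 0.39, and they sat inside the control range. The IL15 difference was -0.18 (SE 0.22, 95% interval -0.64 to 0.28). TNFRSF1B read 12.07 and 12.12 in females 27 and 30 and 11.97 and 11.99 in males 23 and 26, a difference of -0.11 (SE 0.13, 95% interval -0.39 to 0.16).

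Resveratrol on top of the high-fat diet likewise gave 0 of the 5 genes called, with 0% of all probe sets called by limma and 1143 at an unadjusted p under 0.05, none of the 5 among them. This comparison and the one before share the high-fat arrays. NFKBIA read 12.58 and 12.16 in females 21 and 22 and 12.39 and 12.41 in males 4 and 5 given resveratrol, against 12.50 to 12.69 on the high-fat diet. Only female 21 reached the high-fat values, and female 22 was the only 9-month array inside the time 0 range. NFKBIA was 0.22 lower with resveratrol (log2 difference -0.22, SE 0.12, 95% interval -0.48 to 0.03, limma unadjusted p = 0.0856, adjusted p = 0.800). The NFKBIA difference was -0.35 within the lower spike-in set, which holds 1 high-fat array (male 23), and 0.0018 within the higher, which holds 1 array with resveratrol (female 21), with limma adjusted p = 0.991 and 0.998.

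TNF with resveratrol read 9.20 and 7.94 in females 21 and 22 and 8.19 and 8.06 in males 4 and 5. Female 21 had the highest TNF value of all 22 arrays, and the other 3 lay below the high-fat mean. The log2 difference from the high-fat diet was -0.05 (SE 0.28, 95% interval -0.64 to 0.54). IL10 read 9.49 and 9.11 in females 21 and 22 and 9.61 and 9.28 in males 4 and 5, 0.20 above the high-fat diet (SE 0.20, 95% interval -0.23 to 0.62). Male 4 had the highest IL10 value of the series, and the groups overlapped.

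IL15 with resveratrol read 7.33 and 7.48 in females 21 and 22 and 7.53 and 7.90 in males 4 and 5. All but female 21 lay above every high-fat array, and the difference was 0.23 (SE 0.22, 95% interval -0.23 to 0.69). TNFRSF1B read 12.05 and 12.14 in females 21 and 22 and 11.85 and 12.12 in males 4 and 5, with a difference of 0.0011 from the high-fat diet (SE 0.13, 95% interval -0.28 to 0.28). The interval for TNFRSF1B excludes a change of the size seen for time, and the intervals for TNF, IL10 and IL15 reach past 0.5 in at least 1 direction.

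Against the control diet, the high-fat diet with resveratrol gave 0 of the 5 genes called and 0% of all probe sets (limma, with 664 at an unadjusted p under 0.05, none of the 5 among them). The log2 differences were 0.12 for TNF, 0.20 for IL10, 0.06 for IL15, -0.11 for TNFRSF1B and -0.06 for NFKBIA, each with an adjusted p of 1.00. The monocyte minus T cell difference averaged -0.48 ± 0.64 on the high-fat diet with resveratrol, -0.72 ± 0.25 on the high-fat diet and -0.25 ± 0.16 on the control diet. On the high-fat diet with resveratrol that difference was -1.09 and -0.97 in the females and -0.0049 and 0.14 in the males, and its part in the diet values was not tested beyond the fit that holds it as a term, in which no diet difference of the 5 genes passed.

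**Figure D3:**
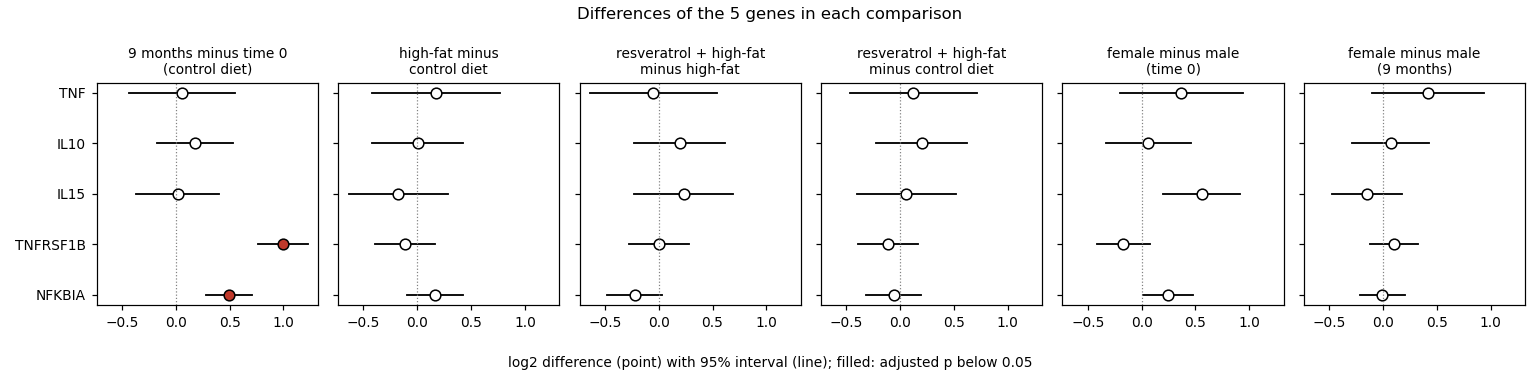
Log2 difference (point) and 95% interval (line) of TNF, IL10, IL15, TNFRSF1B and NFKBIA in 6 comparisons, filled where limma's adjusted p was below 0.05. The filled points are TNFRSF1B at 1.00 and NFKBIA at 0.50 for 9 months minus time 0, and every interval of the diet comparisons holds 0.

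Females and males were compared at time 0 and over the 3 diets at 9 months. At time 0 IL15 was 1.47-fold higher in females (95% interval 1.15 to 1.88), and this did not pass the adjusted test. 0 of the 5 genes were called, against 1.07% of all probe sets (184, of which 85 were higher in females and 99 lower). Of the 17240 probe sets tested, 2832 had an unadjusted p under 0.05 by limma, IL15 and NFKBIA among them.

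IL15 at time 0 read 7.94, 7.59, 8.27, 7.33 and 7.70 in females 6, 8, 10, 17 and 20, against 6.99, 7.04, 7.35, 7.42 and 7.24 in males 11, 12, 15, 24 and 25. All females but number 17 stood above all males. The difference was 0.56 on the log2 scale (SE 0.17, limma unadjusted p = 0.00416, adjusted p = 0.112), and it passed without female 17 (0.67, adjusted p = 0.0486). Females 6 and 10, which led in IL15, are the higher spike-in set of time 0 and also had the highest beta-actin 3′ minus 5′ signal there, 2.45 and 1.84. Within the lower set, 3 females against 5 males, IL15 was 0.33 higher in females (limma adjusted p = 0.429).

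TNF at time 0 read 8.59, 8.26, 9.03, 7.90 and 7.99 in females 6, 8, 10, 17 and 20, against 7.99, 7.70, 7.82, 8.45 and 7.95 in males 11, 12, 15, 24 and 25. Females 6 and 10 again led, followed by male 24, and the sexes overlapped. TNF was 0.37 higher in females (SE 0.27, limma adjusted p = 0.528), and 0.07 higher within the lower spike-in set. NFKBIA read 12.31, 12.00, 12.19, 11.99 and 11.87 in the same females and 11.76, 11.60, 11.72, 12.14 and 11.91 in the same males. It was 0.25 higher in females (SE 0.11, limma unadjusted p = 0.0361, adjusted p = 0.267), and 0.13 higher within the lower set.

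IL10 at time 0 read 9.10, 8.46, 9.22, 9.18 and 9.17 in females 6, 8, 10, 17 and 20, against 9.02, 8.81, 8.63, 9.35 and 9.02 in males 11, 12, 15, 24 and 25. Female 8 stood far below the other females, and the sexes differed by 0.06 (SE 0.19, limma adjusted p = 0.913). TNFRSF1B read 11.18, 10.85, 10.93, 11.35 and 11.03 in the females and 11.39, 11.47, 10.81, 11.24 and 11.29 in the males. It was 0.17 lower in females (log2 difference -0.17, SE 0.12, limma adjusted p = 0.497), the opposite direction to the other members, and the sexes overlapped.

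At 9 months 0 of the 5 genes differed between females and males past the threshold, while 6.01% of all probe sets did (1036 by limma, 530 higher in females). In every diet the highest TNF array was a female, with 9.20 in female 21 on high-fat with resveratrol, 9.03 in female 27 on high-fat and 9.03 in female 8 on the control diet, but the other female of each diet lay at 7.94, 7.94 and 8.04. The 6 males lay between 7.83 and 8.49. TNF was 0.42 higher in females (SE 0.25, 95% interval -0.10 to 0.94, limma adjusted p = 0.348). The differences of the other members were 0.07 for IL10, -0.15 for IL15, 0.10 for TNFRSF1B and -0.01 for NFKBIA, with limma adjusted p from 0.630 to 0.981.

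The sex difference in each effect was tested as an interaction, and 0 of the 5 genes passed in any. For the high-fat diet 0.00580% of all probe sets were called, for resveratrol 0.0116% and for time 0% (limma, with 2015, 1009 and 1843 at an unadjusted p under 0.05). The lowest p among the 5 genes was that of IL15 for time, where the change at 9 months was 0.63 lower in females than in males (log2 difference -0.63, SE 0.32, limma unadjusted p = 0.0642, adjusted p = 0.50). On the control diet IL15 differed by -0.30 between 9 months and time 0 in females and by 0.33 in males, where male 25 at 9 months, at 7.99, held the highest value. The difference between the sexes was -0.17 without male 25 of the control diet, -1.08 without male 16 of that diet and -0.27 with the spike-in set as a term, and passed in none of these.

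At time 0, arrays with more TNF had more NFKBIA, the gene of the feedback inhibitor. Pearson's r was 0.857 over 10 arrays (permutation p = 0.00097, adjusted p = 0.0388 over 40 relations) and Spearman's rho was 0.867 (permutation p = 0.002, adjusted p = 0.08). Without the 2 arrays farthest from the TNF median, females 6 and 10, r was 0.856, which is also the value within the lower spike-in set (n = 8). With each sex's mean taken out, a step chosen after seeing the data, r was 0.811 at time 0 and 0.685 at 9 months, while r was not computed within the 5 arrays of a sex. At 9 months r was 0.604 over 12 arrays (permutation p = 0.0393, adjusted p = 0.314), rho was 0.629 (p = 0.0322, adjusted p = 0.215), r without the 2 farthest arrays was 0.496, and r within the lower spike-in set was 0.69 (n = 7). Only the r at time 0 passed the adjusted threshold, and the difference between the times was not tested.

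TNF and IL15 correlated at time 0 with r = 0.849 (permutation p = 0.00239, adjusted p = 0.0478) and rho = 0.697 (p = 0.0309, adjusted p = 0.215). This relation rests on females 6 and 10, since r was 0.47 without them, and at 9 months r was -0.417 (permutation p = 0.166, adjusted p = 0.535). TNFRSF1B had r = -0.359 with TNF, its ligand, at time 0 and -0.0986 at 9 months (permutation p = 0.31 and 0.758). With the monocyte list mean TNFRSF1B had r = -0.0566 at time 0 and 0.101 at 9 months (permutation p = 0.876 and 0.751). IL10 had its largest relation with the T cell list at time 0, r = -0.657 (permutation p = 0.0387, adjusted p = 0.314). Of the 40 relations, 2 passed by r, those of TNF with NFKBIA and with IL15 at time 0, and 0 passed by rho.

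Among other genes of TNF receptor signalling, 4 of 12 tested rose and 3 fell between time 0 and 9 months on the control diet, where 15.8% of all probe sets rose and 19.1% fell. The list median was 0.05, beside -0.0064 over all probe sets. TNFRSF1A, which encodes the other TNF receptor, TNFR1, averaged 8.49 ± 0.53 at 9 months and 7.79 ± 0.22 at time 0 (log2 difference 0.70, limma adjusted p = 0.00561). The adaptor genes TRAF5 (0.75) and FADD (0.54) and ADAM17 (0.32), whose protease releases TNF and its receptors from the cell surface, also rose. CASP8 (-0.51), the caspase of TNFR1-induced death, and MAP3K7 (-0.37), the kinase TAK1 upstream of NF-kB, fell. LTA and LTB, lymphotoxin genes that neighbour TNF in the RefSeq gene table, parted, with LTB 0.49 lower (log2 difference -0.49, limma adjusted p = 0.0226) and LTA at a difference of 0.01. Of the NF-kB subunit and kinase genes, 2 of 10 listed were tested, and the kinase gene TBK1 rose by 0.76.

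Among 20 tested genes of NF-kB inhibitors and feedback targets, 2 rose and none fell, below the 15.8% and 19.1% of all probe sets, with a median of 0.10 beside -0.0064 over all. IER3, an immediate early gene induced through NF-kB, averaged 9.79 ± 0.25 at 9 months and 8.38 ± 0.82 at time 0 (log2 difference 1.41, limma adjusted p = 0.00179). CD83, an activation marker of dendritic and B cells, was 0.77 higher (limma adjusted p = 0.00445). The chemokine and cytokine genes CCL3L1 and IL1B had the largest differences downward, -1.45 and -1.01, and did not pass (limma adjusted p = 0.0502 and 0.0910). NFKBIA, IER3 and CD83 were higher, while IL1B and TNF, which NF-kB also induces, did not pass in either direction.

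In the IL10 pathway 3 of 9 tested genes rose and 2 fell, with a median of 0.12, where 35.0% of all probe sets were called for time. CD163, a haemoglobin scavenger receptor of monocytes that IL10 induces and which also stands in the monocyte list, was 1.07 higher, HMOX1, which degrades haem, 0.68 and the receptor chain gene IL10RB 0.35. STAT3 (-0.34) and JAK1 (-0.27), which carry the IL10 signal, fell. In the IL15 pathway 1 of 10 tested genes rose and 3 fell, with a median of -0.15, and this share called was close to the 35.0% of all probe sets. STAT5B was 1.17 higher, while its paralog STAT5A (-0.35), the kinase gene JAK3 (-0.45) and the chemokine gene CCL5 (-0.75) fell. The T cell list was lower and the monocyte list held CD163 among its higher genes, and their part in these pathway values was not tested. STAT5A and STAT5B are closely similar in sequence, and their probe sets were not checked for cross-hybridisation here.

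**Figure D4:**
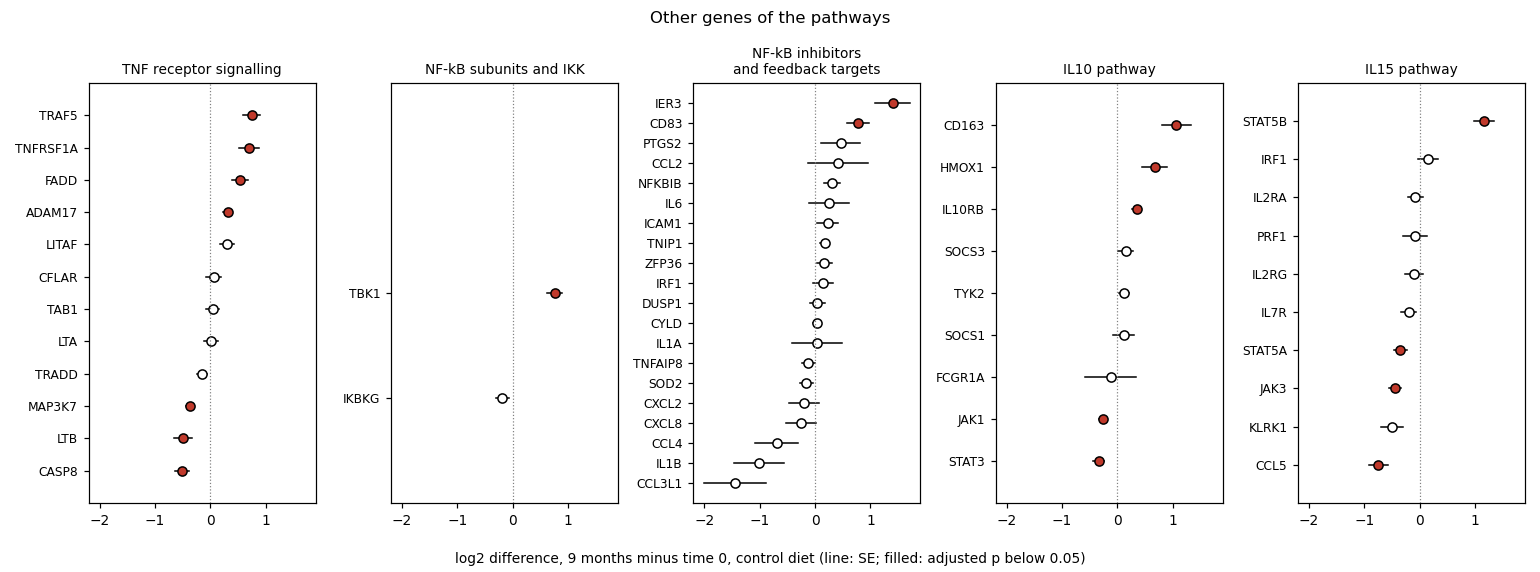
Log2 difference between 9 months and time 0 on the control diet (point, with its SE as a line) for the tested genes of the 5 pathway lists, filled where limma's adjusted p was below 0.05. IER3 at 1.41 and STAT5B at 1.17 lie farthest to the right among the filled points and CCL5 at -0.75 farthest to the left.

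No gene of the 5 pathway lists was called in a diet comparison, in which 0% of all probe sets were called. On the high-fat diet against the control diet all 9 tested genes of the IL10 pathway had negative differences, with a median of -0.16 and, by the smallest p, IL10RB (-0.29), CD163 (-0.90) and TYK2 (-0.31). The monocyte list shares CD163 and FCGR1A with the IL10 pathway. It had 12 of 14 negative in the same comparison, with a median of -0.35. Over all 17240 probe sets tested, 8831 were negative, with a median of -0.0045. In TNF receptor signalling the smallest p belonged to ADAM17 (-0.25), TNFRSF1A (-0.53) and TRADD (-0.22), and among the feedback targets to TNIP1 (-0.29), ZFP36 (-0.19) and CXCL8 (0.36). KLRK1 (0.54), the gene of the NK receptor NKG2D, led the IL15 pathway. With resveratrol against the high-fat diet IL10RB was 0.26 higher (limma adjusted p = 0.728), the smallest p of the IL10 pathway, and PTGS2 was at -0.62 among the feedback targets (adjusted p = 0.847). Between the sexes, IL7R was lower in females at time 0 (-0.42, limma adjusted p = 0.0465), the 1 pathway gene called there, which also stands in the T cell list. FCGR1A was 1.13 higher in females at time 0 and did not pass (limma adjusted p = 0.0501). Of the monocyte list 1 gene was called at time 0, AIF1, 0.53 higher in females (limma adjusted p = 0.0378). At 9 months TRAF5 (0.54) and FADD (0.52) were higher and FCGR1A (-0.96) lower in females (limma adjusted p = 0.00366, 0.0170 and 0.0298), where 6.01% of all probe sets were called. Within single diets the share called was 9.98% on high-fat with resveratrol and 0.0928% on each of the others. FCGR1A also stands in the monocyte list, of which 5 of 14 genes were lower in females at 9 months (FCGR1A, AIF1, TYROBP, FCGR3A and FCER1G) and none higher. The monocyte list mean ran from 9.36 to 9.97 in those 6 females and from 9.59 to 10.1 in the 6 males. In the same comparison 2 of 5 granulocyte and 3 of 5 erythroid genes were lower, and CD79B (0.97) and CD3E (0.54) were higher in females, and the part of these markers in the sex differences was not tested.

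The genes most like each member were those with the highest Pearson's r over the 22 arrays among 5901 other genes, given as a description since the arrays share 2 times and 4 conditions. TNF was nearest to EDN1 (r = 0.773, and 0.752 after each group's mean was taken out), TRAF3IP2 (0.760 and 0.693) and METTL13 (0.682 and 0.733). EDN1 encodes the vasoconstrictor endothelin-1, and TRAF3IP2 encodes an adaptor of the IL-17 receptor. IL10 was nearest to SLA-DQB1, a class II antigen presentation gene (0.716 and 0.682), VRK3 (0.676 and 0.738) and SERPINH1 (0.676 and 0.618).

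IL15 was nearest to SPPL3 (r = 0.826, and 0.772 without group means), DET1 (0.820 and 0.905) and ZCCHC24 (0.807 and 0.743). TNFRSF1B was nearest to MAPK1IP1L (0.964 and 0.564), TP53INP2 (0.964 and 0.737) and JARID2 (0.961 and 0.644). NFKBIA was nearest to UMAD1 (0.937 and 0.830), ELAVL1 (0.906 and 0.511) and SERBP1 (0.898 and 0.503). For TNFRSF1B, and for NFKBIA with ELAVL1 and SERBP1, r fell by more than 0.2 once group means were taken out, while for the genes nearest to TNF, IL10 and IL15 it moved by less than 0.1 in either direction.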

How the data were processed

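The deposited values are microarray intensities on a linear scale, 1 per probe set and array. The submitters' processing notes name GCOS, RMA and Affymetrix Expression Console 1.1, so the authors deposited intensities that RMA had background-corrected, normalized and summarised. The log2 was taken here after a floor of 1, which no value needed. Of 24123 probe sets, 124 controls were set aside. Of the other 23999, 10069 carried 1 symbol, 198 several and 13732 none, and no probe set with several symbols named a member. Names came from the platform annotation, checked by Entrez ID against a RefSeq pig gene table of assembly Sscrofa11.1, used for names and neighbours alone, which changed 0 symbols and lacked 108 IDs. Tests ran on probe sets with 2 or more arrays above a log2 value of 5 (17240, 71.8%).

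All 22 arrays were fitted with limma 3.58.1 in R 4.3.3 (statmod 1.5.0 for the block fit), with condition and an additive sex term for diets and time, and with 8 group means for sexes and interactions. Tests were two-sided, with Benjamini-Hochberg adjustment over all probe sets tested and a threshold of 0.05. At 9 months the sex difference is the mean over the 3 diets. The procedure was tested on simulated data. Correlations have two-sided p-values from 100000 permutations. The number of arrays limits the precision.

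Alternatives were other dim filters, further normalization, other model terms, array weights, trended robust variance, spike-in sets, the marker difference as a covariate, the pig as a block and leaving out each array. The monocyte minus T cell difference uses the mean log2 value of each list, with the brightest probe set per gene. Besides the members, genes were named by rule: the 3 with the highest r to each member, and in each pathway list those called or otherwise the 3 with the smallest p. LTA, CCL3L1 and IL1B were added after their values were seen. The members and lists were chosen with earlier results of these data known.

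The numbers 8 and 25 pair arrays across the times by the labels. Over probe sets, profiles centred on their groups correlated at -0.0564 for pig 8, where the highest value with another time 0 female was 0.348, and at 0.199 for pig 25, where it was 0.198 with another male. Apart from these pigs each array is a separate animal. No genome or sequence was used here.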

Additional observations from a re-analysis of the deposited data

Results flagged for a closer look

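The IL10 value of female 8 at time 0 lay far from those of the other 4 females, at a log2 value of 8.46 where the nearest was 9.10. Its gap to the nearest value was 0.839 of the group's whole range. Among all 10 time 0 arrays the same rule did not mark it, with male 15 at 8.63 and male 12 at 8.81. The females' group was 1 of 30 examined for a sample standing apart, some of which share arrays. Chance alone marks about 1 in 20 groups. Female 8 read 9.24 for IL10 at 9 months. Whether the low value comes from the animal or from the array was not tested.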

How the results depend on the processing

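Of 900 values of the 5 genes under other settings, 897 kept their side of the threshold, 1 lost it, 2 gained it and 0 called values reversed, while 98 uncalled ones changed sign. Most of the 897 were uncalled values that stayed uncalled. The called results, TNFRSF1B and NFKBIA for time, kept their call in 25 of 25 and 24 of 25 settings. TNFRSF1B for time ranged from 0.92 to 1.06 (highest adjusted p = 0.000120) and NFKBIA from 0.33 to 0.57. NFKBIA lost its call with the monocyte minus T cell covariate (0.33, adjusted p = 0.0788, range over all settings 8.68e-06 to 0.0788), and IL10 for time gained one with array weights (0.38). IL15 between the sexes at time 0 ranged from 0.43 to 0.67 when each array was left out, gaining its call without female 17, and was 0.17 with an additive sex term over all arrays (adjusted p = 0.667), which averages both times, and 0.33 within the lower spike-in set. The pig as a random block was fitted for time and for sex by time alone. With it, TNFRSF1B was 0.99 and NFKBIA 0.49 higher at 9 months (limma adjusted p = 2.83e-06 and 0.00133). No other call of the 5 genes changed in these comparisons. The correlation between arrays of a pig was estimated at -0.18 in the fit for time and -0.018 in that for sex by time. Chosen after seeing the data, all 3 diets at 9 months against time 0 gave 0.92 for TNFRSF1B and 0.53 for NFKBIA, and time 0 without females 6 and 10 gave 0.97 and 0.57. Counts over all probe sets moved more. High-fat against control diet gave 18 with 8 group means, 68 with array weights, 25 within the lower spike-in set of 9 months and 0 to 18 leaving out each array (18 without control female 8, 1 without high-fat female 27). Resveratrol against high-fat gave 1 with 8 group means, 29 within the lower set and 1 with the covariate, and resveratrol against control gave 1 with 8 group means. Females against males at time 0 gave 47 with the additive sex term, 25 with the spike-in set as a term, 22 within the lower set and 38 to 395 leaving out each array (110, 49, 368 and 395 without females 8, 10, 17 and 20, and 38, 43 and 54 without males 11, 12 and 25). At 9 months they gave 47 with the additive sex term, 14 within the lower set, 9 within the higher, 21 with the covariate and 319 to 1441 leaving out each array (412 and 514 without control female 8 and male 25, 464, 599 and 319 without high-fat females 27 and 30 and male 23, and 426, 559, 485 and 662 without females 21 and 22 and males 4 and 5 given resveratrol). Sex by high-fat diet gave 0 with the stricter filter and 1 to 154 leaving out each array (10, 4 and 154 without control females 18 and 8 and male 25, and 75 without high-fat male 26). Sex by resveratrol gave 0 with the stricter filter, 1 with the spike-in set, 1 with the covariate and 1 to 54 leaving out each array (54 when high-fat male 26 is left out, and 1 without high-fat female 30 or male 23, or female 22 or male 4 or 5 given resveratrol). Sex by time gave 0 to 40 leaving out each array (40, 1 and 12 without control females 18 and 8 and male 25). For these shifts the cause was not tested. Where leaving out an array leaves 1 in its group, that array is assumed to vary like the others. The same holds within the spike-in sets of 9 months, of which the lower has 1 high-fat array and the higher 1 control array and 1 with resveratrol. All 5 genes passed the dim filter, and whether background signal limits any of them was not tested. IL15, at 6.99 to 8.27, lay around the array medians of the probe sets tested, 7.22 to 7.34. Among all probe sets of an array it stood between percentiles 60.1 and 76.5.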
